A study of Mus musculus with 8 samples.

Results

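The genes described here are Lrat, Plin2, Rara, Rarb and Rxra, which serve the storage of retinoids and the response to them in hepatic stellate cells. They were taken from the authors' m6A peak lists by gene symbol, and all 5 had a peak in at least 1 list, out of 6487 genes with a peak. Together they carried 15 of the 15106 peaks, 10 in control cells and 5 in Mettl3 knockout cells. N6-methyladenosine (m6A) is a methyl mark inside RNA, and Mettl3 encodes the catalytic subunit of its main writer complex. Control cells (labelled WT) and cells with an HSC-specific deletion of Mettl3 (cKO) were primary stellate cells, cultured for 7 days so that they activated on their own. The mice are given as C57BL/6J. The driver of the deletion, the age of the mice and the number of animals behind a library are not stated there, nor in the series text. The labels name 2 precipitated and 2 input libraries for each genotype, but each genotype has a single peak list with no value per replicate. No difference between the genotypes therefore has a replicate error or a test, and read depth is unknown.

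Quiescent stellate cells hold most of the body's vitamin A as retinyl esters in lipid droplets, and they lose these droplets as they turn into myofibroblasts. Retinol is esterified by lecithin retinol acyltransferase (Lrat), and the droplets are coated by perilipin 2 (Plin2). Retinoic acid, the active product of retinol, binds the nuclear receptors RARα (Rara) and RARβ (Rarb), which act on DNA as heterodimers with RXRα (Rxra). RXRα is also the partner of many other nuclear receptors. m6A in messenger RNA is usually densest near the stop codon and in the 3′ UTR, where it is read by proteins that act on RNA stability and translation.

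At gene level the set was divided. Peaks of Rara, Plin2 and Rxra were called in both genotypes, those of Lrat and Rarb in control cells only. These are 3 of 5 genes (60.0%, exact 95% interval 14.7 to 94.7). Over all 4986 genes of the control list, 56.1% were found in the cKO list too, so the share of the 5 genes was near the background. Intervals here and below are exact Clopper-Pearson intervals and cover counting error only. At the level of sites, 3 of the 10 control peaks were overlapped by a cKO peak on the same strand (30%, 6.67 to 65.2), against 33.7% of all control peaks. In the other direction, 3 of the 5 cKO peaks were overlapped by a control peak (60.0%, 14.7 to 94.7), against 41.8% of all cKO peaks. The 3 sites called in both genotypes, 1 each in Rara, Plin2 and Rxra, all lay in 3′ UTRs. None of the 3 coding-sequence peaks of the control list had a counterpart (exact interval up to 70.8%), and neither did the 5′ UTR peak of Rarb. Over all genes a counterpart was found for 38.4% of control coding peaks (1707 of 4451) and 25.3% of those in 3′ UTRs (675 of 2665), and the members' counts are too small to set against these shares. The 3′ UTR held 6 of the 10 control peaks (60.0%, 26.2 to 87.8), beside 31.7% of all control peaks, and 4 of the 5 cKO peaks (80.0%, 28.4 to 99.5), beside 23.9% of all cKO peaks. These peaks are not independent, as the intervals take them to be. Of the 5 cKO peaks 3 belong to Rxra, and 3 of the 4 in 3′ UTRs overlap control peaks already counted.

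Lrat, the esterifying enzyme of vitamin A storage and a defining gene of quiescent stellate cells, had 2 control peaks and no cKO peak. Positions are those of the mm10 build. The stronger peak lay in the 3′ UTR on the minus strand, at chr3:82895687-82895867, and covered 181 nucleotides. Its fold enrichment, read here as precipitated over input RNA as the authors computed it, was 114 at a log10 p of -37.1. This placed it at rank 863 of the 8397 control peaks, above 89.7% of them, and at rank 279 of the 2665 control peaks in 3′ UTRs. The peak ended 3105 bp before the 3′ end of the annotated gene. The second peak, of 180 nucleotides at chr3:82903226-82903405, lay in coding sequence with a fold of 13.7 and stood at percentile 37.4 by fold. The annotated gene Rbm46os also spans both positions, and no peak in either list was assigned to it. Of the 1130 genes with 2 control peaks, 62.8% (59.9 to 65.7) were also called in cKO cells, which Lrat was not. A transcript without a called peak can be less methylated or less abundant, and RNA abundance was not analysed here.

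Plin2, the coat protein of stellate cell lipid droplets, was called at 2 sites in control cells, and only its 3′ UTR site was called again in cKO cells. The control peak there covered 150 nucleotides at chr4:86656728-86656877, with a fold of 8.86 and a log10 p of -2.19. The cKO peak, at chr4:86656728-86656907, ended at the same base of the minus-strand transcript and covered 180 nucleotides, with a fold of 24.6 and a log10 p of -7.32. All 150 nucleotides of the control peak lay inside the cKO peak. Within its own list, the site stood at percentile 19.1 by fold in control and at 72.7 in cKO, and by p-value at 10.2 and 49.9. It was the only one of the 3 shared sites that ranked higher in the cKO list. A higher fold percentile in cKO was seen in 52.4% of the 2829 overlapping pairs of all genes and in 296 of the 675 pairs with a control peak in a 3′ UTR (43.9%). A difference above that of Plin2, which was 53.6 percentile points, was seen in 11.2% of all pairs. The second Plin2 site was a control coding peak across an exon junction, in blocks of 12 and 108 nucleotides from 86660258 to 86662041. It had the higher fold of the 2 control peaks, 41.1, and no counterpart.

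Rara encodes RARα and had 1 peak in each genotype, at overlapping places in the 3′ UTR. The control peak covered 330 nucleotides at chr11:98973746-98974075 on the plus strand, with a fold of 51.9 and a log10 p of -16.2. The cKO peak covered 270 nucleotides at chr11:98973866-98974135, with a fold of 22.1 and a log10 p of -6.47. They shared 210 nucleotides, 63.6% of the control peak and 77.8% of the cKO peak, and ended 867 and 807 bp before the 3′ end of the annotated gene. By fold the site stood at percentile 77.1 in control and 69.5 in cKO, a difference of -7.65 points, and 39.3% of all overlapping pairs had a lower one. By p-value its percentiles were 65.9 and 46.2, a difference of -19.7 points.

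Rarb encodes RARβ and is itself a textbook target of retinoic acid in the mouse. It had 2 control peaks and no cKO peak. The 5′ UTR peak, at chr14:16574969-16575238 on the minus strand, covered 270 nucleotides with a fold of 53.5 and a log10 p of -16.7. It ranked 37th of the 195 control peaks in 5′ UTRs (percentile 81.3 within that class), and 39.0% of those 195 peaks had a cKO counterpart. Its upstream edge lay 238 bp downstream of the only Rarb start site in the RefSeq promoter table (GRCm38.p6). The following 30 bases before that start site lie at chr14:16575500-16575529. They are shown because they place the 5′ UTR peak downstream of the promoter that holds the known retinoic acid response element. Both copies of GTTCA, the last 5 bases of the half-site of that element, are in capitals.
Rarb promoter, minus strand: gGTTCAccgaaaGTTCActcgcatatatta
The repeat spans bases 52 to 37 before the start. It was found by a search for GTTCA, then 6 bases of any kind, then GTTCA again, on both strands of 32851 promoters of 300 bases, of which 25 (0.0761%) held it. Of the 9 listed promoters of the 5 genes, 1 held it. GTTCA is the last 5 bases of each 6-base half-site of the known element, so the 5-base spacer of that element counts as 6 here. The pattern was thus taken from the known element, and finding it in the Rarb promoter is no separate result. The match is one of letters, and no binding or transcription was measured.

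The other Rarb peak was assigned to coding sequence at the 3′ end of the gene, with blocks of 233 and 8 nucleotides from 16432035 to 16434172, a fold of 18.9 and a log10 p of -5.33. Its assignment to Rarb is uncertain. The control list also holds a 3′ UTR peak of Top2b, the DNA topoisomerase IIβ gene, on the opposite strand from 16431959 to 16432288. It has the same fold of 18.9 and the same p-value, and all 233 nucleotides of the longer Rarb block lie inside it. Such overlapping peaks of equal fold and p on opposite strands made up 133 of the 8397 control peaks (1.58%) and 88 of the 6709 cKO peaks (1.31%). The Rarb coding peak was the only one of the 15 peaks with such a twin. Whether the authors counted reads by strand is not stated, and no cKO peak on either strand met the Rarb peak.

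Rxra encodes RXRα, the shared partner receptor, and had the most peaks of the 5 genes, with 3 in each list. These covered 839 nucleotides in control and 690 in cKO, but only 1 site was called in both. That site lay in the distal 3′ UTR, 362 bp before the 3′ end of the annotated gene. The control peak covered 240 nucleotides at chr2:27762718-27762957 on the plus strand. Its fold of 1030, at a log10 p of -349, was rank 34 of all 8397 control peaks and rank 11 of the 2665 in 3′ UTRs. The cKO peak at chr2:27762688-27762957 covered 270 nucleotides, ended at the same base and contained the whole control peak. Its fold was 5.73, at a log10 p of -134.

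The measures of peak strength disagreed at this Rxra site. By fold it stood at percentile 99.6 among control peaks and 11.9 among cKO peaks, a difference of -87.7 points, and 1.34% of all overlapping pairs had a lower one. By p-value it stood at 96.6 and 93.5. A difference of 50 fold percentile points or more downward, with p percentiles less than 10 points apart, was seen in 56 of the 2829 pairs. These limits were not in the plan. Without the limit on p, 12.8% of the pairs had such a fall and 12.5% a rise as large. Among the 297 cKO peaks with a fold within 10% of 5.73, the median log10 p was -3.32, and 12 had a smaller p than Rxra. Other control peaks of very high fold also met cKO peaks of low fold. Of 114 control peaks with a fold of at least 500, a limit set after the values were seen, 75 had a counterpart, and 15 of these, Rxra included, had a cKO fold of 5.73 or lower. The median cKO fold of those 75 counterparts was 16.4, in a range from 1.68 to 914. A lower fold percentile in cKO was found for 72 of the 75, which picking peaks by a high control fold itself favours.

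The remaining Rxra peaks were called in 1 genotype each. Upstream in the same 3′ UTR, control cells had a peak of 419 nucleotides at chr2:27761644-27762062 with a fold of 28.2. A control peak of fold 11.3 lay at chr2:27760122-27760301, and a cKO peak of nearly the same fold, 11.4, at chr2:27759794-27759973. Both covered 180 nucleotides, and a gap of 148 bp lay between them. If peaks within 200 bp are taken as counterparts, these become a further shared site. The coding-sequence peak of Rxra was found in cKO alone, in blocks of 101 and 139 nucleotides across an intron from 27741843 to 27748750, with a fold of 4.39 and a log10 p of -10.3. The highest cKO fold of the gene, 11.4, thus came from another place than its highest control fold.

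**Figure D1:**
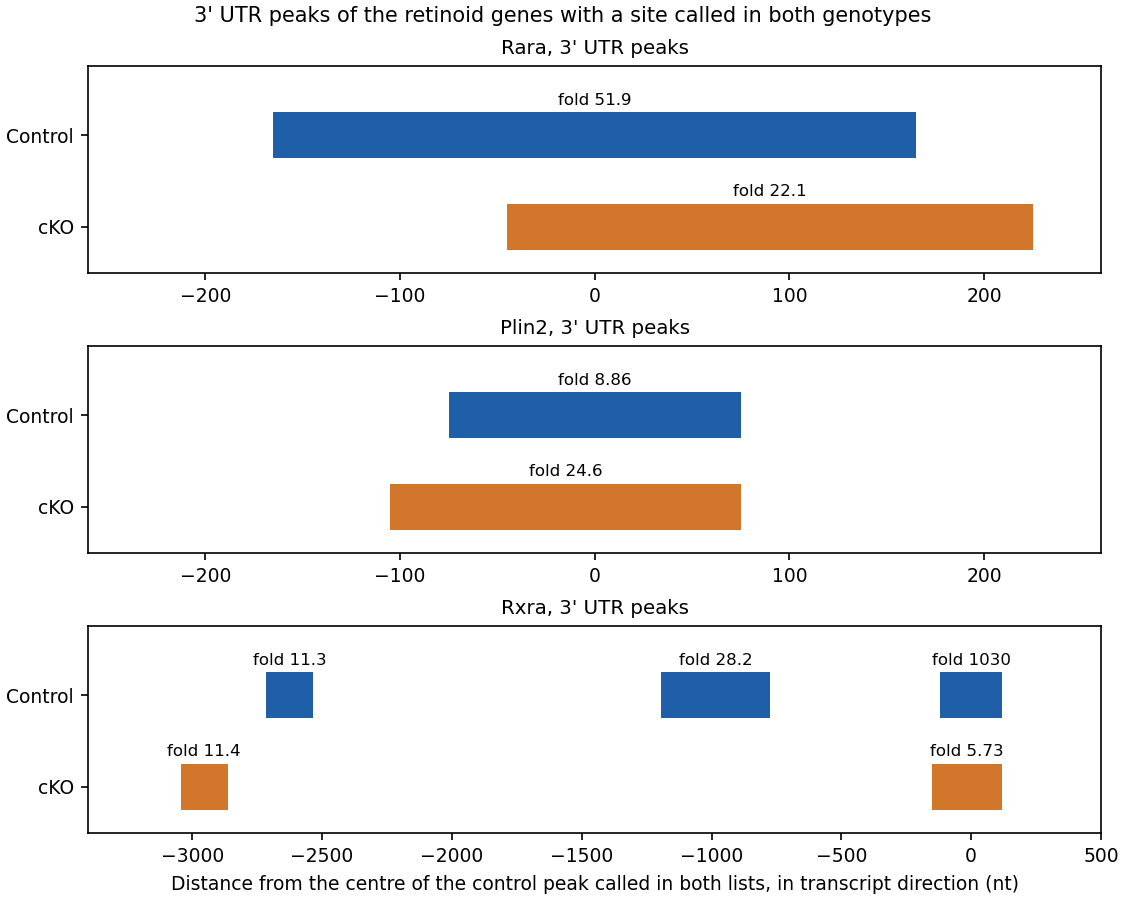
Peaks in the 3′ UTRs of Rara, Plin2 and Rxra in control (blue) and cKO (orange), drawn to scale against the distance in nucleotides from the centre of the control peak that was called in both genotypes. Each bar is a called peak with its fold enrichment above it, and the 2 proximal Rxra peaks of fold 11.3 and 11.4 lie side by side without overlap.

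The fold and the p-value of a peak were not independent in these lists, in a way that touches all 5 genes. In each list the largest p-value found at a given fold or above formed a sharp lower edge, along which a fold fixes a p. Of all control peaks, 62.0% (61.0 to 63.0) lay within 5% of that edge in log10 p, as did 41.9% (40.7 to 43.1) of all cKO peaks. All 10 control peaks of the 5 genes lay on it. In the cKO list, the peaks of Rara and Plin2 and the proximal Rxra peak lay on it, and the Rxra peaks of fold 5.73 and 4.39 did not. For the peaks on the edge, fold and p carry a single piece of information. Of the 2829 overlapping pairs, 17.7% lay on the edge in both lists, as Rara and Plin2 did, and 24.96% in the control list only, as Rxra did. This comparison was chosen after the values were seen, and the part of expression level in it was not tested.

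**Figure D2:**
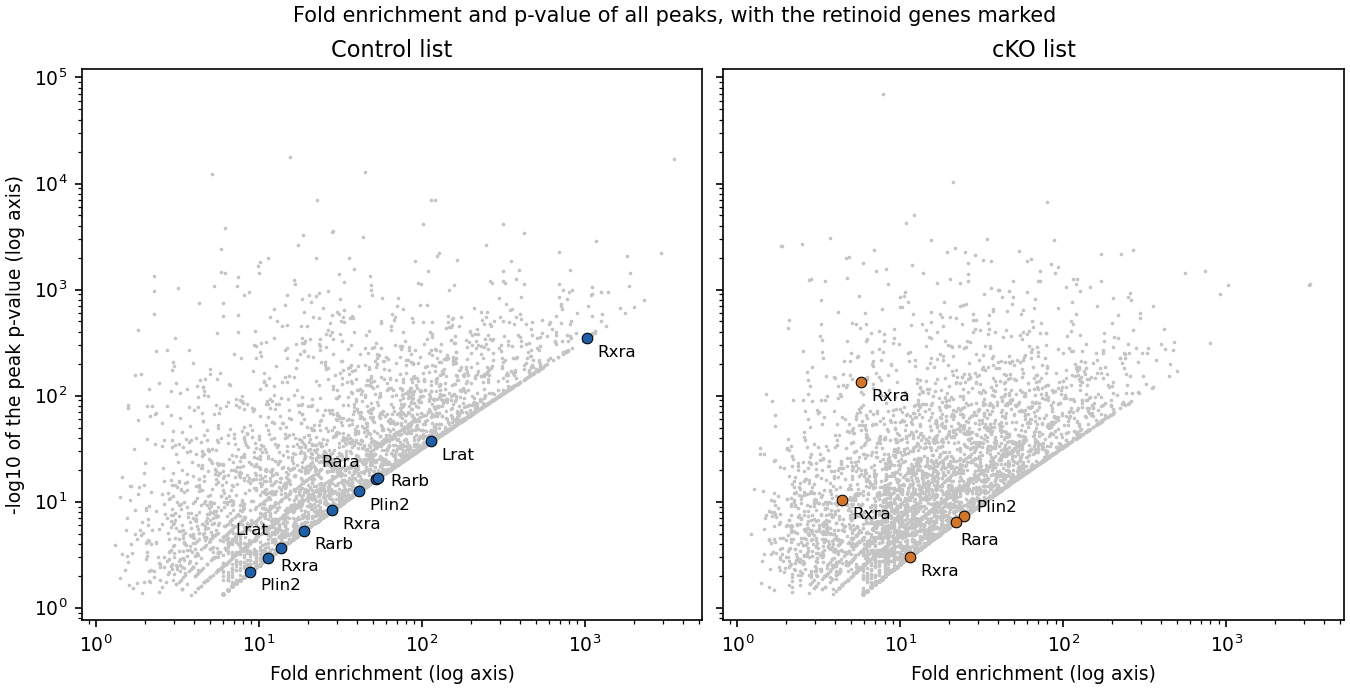
Fold enrichment (horizontal, log axis) against -log10 of the p-value (vertical, log axis) for all control peaks and all cKO peaks, with the 10 control peaks (blue) and 5 cKO peaks (orange) of the retinoid genes marked and peaks whose log10 p is a spreadsheet error left out. All marked control peaks lie along the lower edge of the cloud, and the cKO Rxra peaks of fold 5.73 and 4.39 lie above it.

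**Figure D3:**
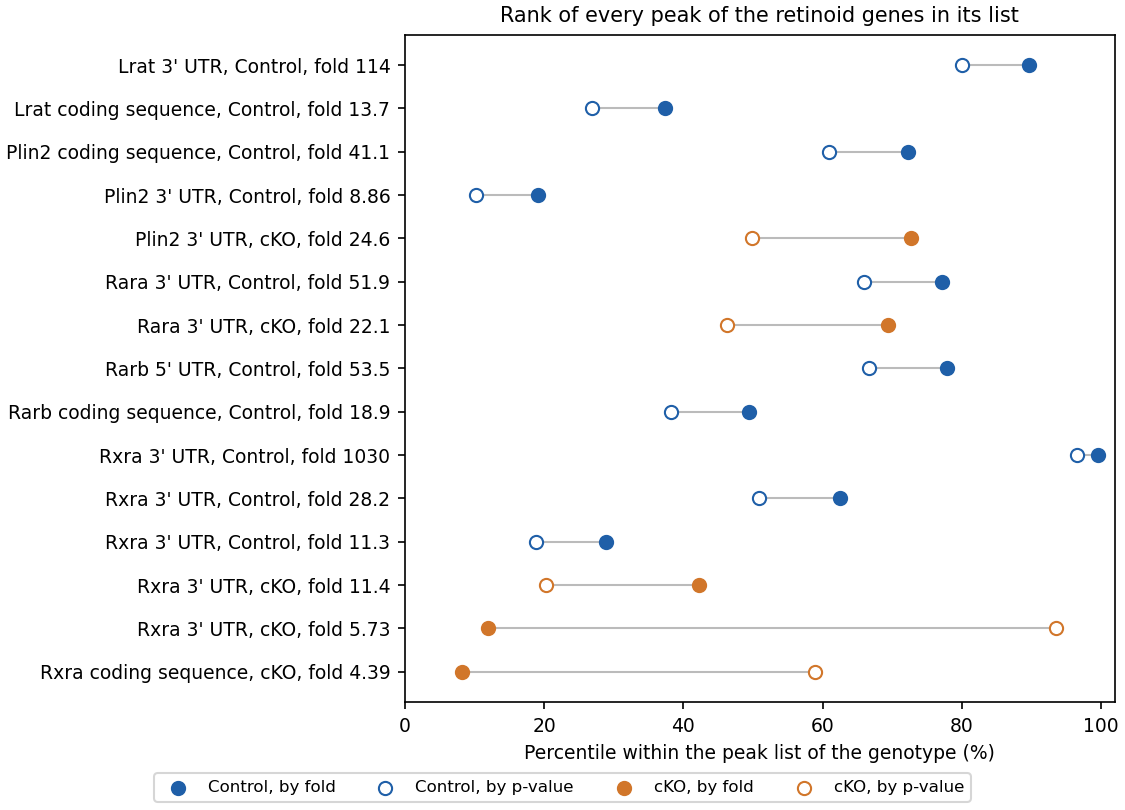
Percentile of each of the 15 peaks among all peaks of its own list, by fold (filled) and by p-value (open), in control (blue) and cKO (orange). The Rxra 3′ UTR peak of fold 5.73 stands at percentile 11.9 by fold and 93.5 by p-value, whereas the edge peaks stand lower by p-value than by fold. The gap is wider for the cKO edge peaks, at 72.7 by fold and 49.9 by p-value for Plin2, 69.5 and 46.2 for Rara and 42.3 and 20.3 for Rxra.

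The genes closest to each of the 5 in pattern were sought among genes with equal peak numbers and annotation classes, by distance between the fold percentiles of the best peaks over the 2 lists. For Rara the nearest were Hlcs, with folds of 45.9 and 23.2 in control and cKO at a distance of 2.82 percentile points, and Armc5, at 5.21 points. Plin2 was nearest to Tbc1d9b, with folds of 46.7 and 25.7 at 2.80 points. Among genes found in control alone, Lrat was nearest to Icmt and Terf2, each with a best fold of 116 and at 0.286 points. Rarb, for which 10 genes qualified, was nearest to Usp54, with a fold of 43.5 at 4.33 points. For Rxra only 7 genes qualified, and the nearest was the growth factor gene Tgfb2, with folds of 196 and 11 at 5.09 points. The best folds of Rxra were 1030 and 11.4, so nearness in percentile hides a large gap in control fold. The second nearest, Zc3h11a, was 36.1 points away.

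Genes of retinoid uptake, storage and metabolism were also divided. Of 36 listed genes, Lrat included, 12 had a peak, and of the 10 called in control 6 were also called in cKO (60.0%, 26.2 to 87.8). The median best fold of the list was 37.9 in control and 17.4 in cKO, beside 26 and 16.5 over all genes. Dhrs3, which reduces retinaldehyde back to retinol, had a 5′ UTR peak of fold 97.4 in control that was met by a cKO peak of 6.09, and a 3′ UTR peak of 20.1 that was met by one of 44.9. Dhrs4, another retinaldehyde reductase, had overlapping 3′ UTR peaks of fold 49.5 and 23.3. Cyp26b1, which degrades retinoic acid, had peaks of fold 21.3 and 8.09 that did not overlap. Bco1, the carotene-cleaving enzyme, was called in both lists. Its 3′ UTR site had folds of 16.6 in control and 6.18 in cKO, and its 5′ UTR site 6.65 and 11.5. That cKO 5′ UTR peak also met a control coding peak of fold 2. Lpl, the lipoprotein lipase that helps cells take up retinyl esters, had a 3′ UTR site of fold 22.5 in control and 170 in cKO. The retinol dehydrogenase genes Rdh11 (fold 62.4) and Rdh14 (11.3) and the cytochrome gene Cyp1b1 (43.9) joined Lrat in the control list alone. Fabp5, which carries retinoic acid and fatty acids (50.8), and the retinaldehyde dehydrogenase gene Aldh1a1 (11.4) were called in cKO only.

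Among 35 genes of lipid droplet proteins and lipases, 14 had a peak, and 5 of the 10 called in control were also called in cKO (50%, 18.7 to 81.3). The list's median best fold was 39.3 in control and 16.2 in cKO. Besides Plin2, the genes called in both with the highest control folds were Faf2 (69.7 and 11.4) and the acyltransferase gene Agpat2 (37.4 and 42.7), at overlapping 3′ UTR sites. Gpat4 (101), the lysosomal lipase gene Lipa (57.2) and Abhd5 (42.3), the coactivator of adipose triglyceride lipase, led the genes found in control alone. Aup1 (67.7), the seipin gene Bscl2 (31.3) and G0s2 (16.2), an inhibitor of that lipase, led those found in cKO alone.

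No retinoid receptor or listed RXR partner was called in cKO cells without being called in control cells. Of 28 listed nuclear receptors, 10 had a peak, all of them in control, and 5 of these also in cKO (50%, 18.7 to 81.3). Being 0 of 10, this share has an exact interval of up to 30.8%. The interval holds the 23.1% of all genes in either list that were called in cKO only, and 10 genes are too few to tell whether the receptors differed from that share. The median best fold of the list was 28.95 in control and 22.1 in cKO. Rarg, the third retinoic acid receptor gene, had control peaks of fold 15.7 and 11.3 and a cKO peak of 19.5, with no overlap. The orphan receptor genes Nr2f1 and Nr2f2 each had a control 3′ UTR peak that was met in cKO, and their ranks differed in opposite directions. The Nr2f1 site had folds of 6.84 in control and 27.2 in cKO, at percentiles 9.67 and 75.4, over the same 181 nucleotides. The Nr2f2 site had folds of 466 and 2.77, at percentiles 98.4 and 3.29, with the cKO peak assigned to an unspecified exon, and the best cKO fold of that gene, 31.1, came from another place in the 3′ UTR. Rora (36.2), Nr2c2 (21.7), Nr2f6 (9.26) and Ppard (8.05), the PPARδ gene, were, like Rarb, found in control alone.

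Of 22 listed coregulators of these receptors, 18 had a peak, and 11 of the 17 called in control were also called in cKO (64.7%, 38.3 to 85.8). Their median best fold was 36.6 in control and 21.7 in cKO. The corepressor gene Nrip1 had 3 coding peaks in each list. Inside the control site of fold 179 the cKO list held separate peaks of fold 3.43 and 35.7, and at the site of fold 104 it held one of 20.6. Its best control peak, of fold 427, was not met. Best folds were 339 and 30.9 for the acetyltransferase gene Crebbp, in peaks that did not overlap, and 175 and 12.5 for the coactivator gene Ncoa2, in peaks that did. Tbl1xr1 (36.6), Lcor (25.8) and Tbl1x (21.3) led the genes found in control alone, and Gps2 (7.54) was the only one in cKO alone.

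Of 27 genes known to respond to retinoic acid, 10 had a peak, and 6 of the 8 called in control were also called in cKO (75%, 34.9 to 96.8). With a log10 false discovery rate of -5 or lower required, this was 3 of 7 (42.9%), beside 49.5% of all genes. The median best fold of the list was 34.9 in control and 8.46 in cKO. Rarb and the transglutaminase gene Tgm2 (30.2) were called in control only, and Hoxa4 (6.62) in cKO only. Hoxb4 had overlapping 3′ UTR peaks of fold 39.5 and 21.3, and Hoxa5 overlapping coding peaks of 20.5 and 8.83. Dhrs3, Cyp26b1 and Nrip1 belong to this list as well. The intervals of all 5 lists hold the 56.1% of all control genes. They are wide, with 8 to 17 genes called in control per list, so this count cannot tell whether a list differed from the background.

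**Figure D4:**
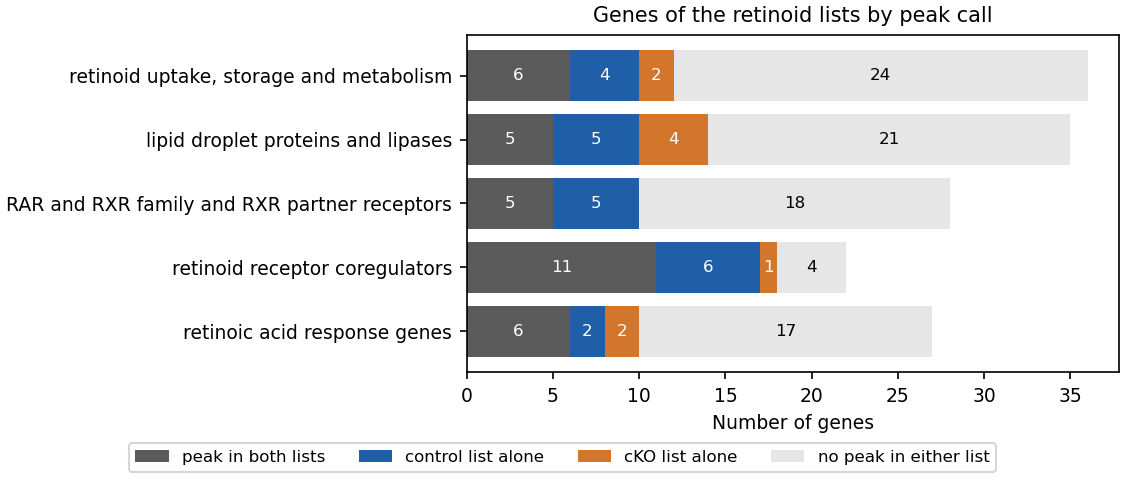
Number of genes in each of the 5 retinoid-related lists that were called in both genotypes, in control only, in cKO only or in neither. The receptor list has no gene in the cKO list alone, a share whose interval (up to 30.8%) holds the 23.1% of all genes. The coregulator list, the shortest with 22 genes, has the fewest without a peak.

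The labelled cell type could be checked against markers only as far as peaks show them, since a peak needs both the RNA and the mark. Of 18 stellate cell markers, 15 had a peak in at least 1 list, and Gfap, Ngfr and Vim had none. Of these 15, 10 were called in both lists, among them Des, Pdgfrb, Lhx2, Hand2 and Col1a1. Lrat was called in control alone, and Reln, Hgf, Colec11 and Rgs5 in cKO alone. Of the 11 hepatocyte markers matched to the RefSeq table only Ass1 had a peak, and Alb had none. Endothelial markers with a peak numbered 5 of 12 (Pecam1, Kdr, Cdh5, Lyve1 and Eng), macrophage markers 2 of 12 (Csf1r and Cd68) and biliary markers 1 of 6 (Krt19). The best control fold was 737 for Cdh5 and 232 for Eng, beside 423 for Pdgfra, the highest among the stellate markers. The part of other cell types in the peaks of the retinoid genes was not tested.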

How the data were processed

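Total RNA of the 8 samples was fragmented and precipitated with an antibody against m6A or kept as input, per the labels' protocols. The authors deposited 1 peak list per genotype, with positions, exon blocks, annotation class and gene. Per the file headers, each peak has a fold enrichment, which is a ratio, and log10 values of its p-value and false discovery rate, which were handled as a score because they run to large negative numbers. The p-value itself stands in a deposited column headed score. In the deposited log10 p column, a spreadsheet error stood in 57 control and 44 cKO entries, which were ranked as the smallest p. HISAT2, HOMER and mm10 appear in the submitters' processing notes. How peaks were called and replicates combined is not given in the sources used here.

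Counterparts are peaks of the 2 lists whose exon blocks share at least 1 bp on the same strand. A percentile is the percent of peaks of a list with a lower fold (or a larger p), ties counted in equal parts. Folds were not subtracted between lists. All peaks of the 5 genes are reported. From each gene list, all genes with a peak are named where at most 12 have one, and otherwise the 3 of highest fold in each class (both lists, control alone, cKO alone), with the 2 nearest genes in pattern for each of the 5, of which some are left out here. Some genes that the rule takes are not reported here. The genes and lists were chosen with earlier results of these data known. Gene positions and promoters are from RefSeq tables of GRCm38.p6, which is the mm10 build. All listed pathway genes were found there. The share of all annotated genes with a peak was not taken, so counts of listed genes with a peak have no background here. The overlap and percentile code was tested on simulated data. Python 3.11.15, pandas 2.3.3, numpy 2.4.6, scipy 1.17.1 and matplotlib 3.10.9 were used.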

Additional observations from a re-analysis of the deposited data

How the results depend on the processing

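No paired analysis was possible because the peak lists carry no value per replicate, and for the same reason no replicate could be left out. The counts of shared genes and of shared sites among the 5 retinoid genes stayed within 1.5 times their values under every overlap rule and threshold tried. The 3 shared control sites became 2 of 6 when a log10 false discovery rate of -5 or lower was required, which removed the control peak of Plin2, and 4 of 10 when peaks within 200 bp counted. Leaving out the Rarb coding peak with a twin on the opposite strand, an alternative chosen after seeing the data, gave 3 of 9. With the stricter false discovery rate, fewer peaks enter and the genes in both lists numbered 3 of 7 for lipid droplet genes, 3 of 6 for receptors, 7 of 15 for coregulators and 3 of 7 for retinoic acid response genes, beside 49.5% of all genes. The last of these went from above the share of all genes (75% against 56.1%) to below it (42.9%). The percentile of a best peak depended on what it was ranked among. Among the best peaks of all genes, the control percentiles were 84.5 for Lrat, 63.4 for Plin2, 68.7 for Rara, 69.6 for Rarb and 99.4 for Rxra, and the cKO percentiles 64.5 for Plin2, 60.8 for Rara and 34.3 for Rxra. Within the annotation class they were 71.1 for Plin2 and 81.3 for Rarb in control, and 77.4 for Plin2, 74.2 for Rara and 46.3 for Rxra in cKO. By p-value they were 80.0 for Lrat, 60.9 for Plin2, 65.9 for Rara, 66.6 for Rarb and 96.6 for Rxra in control, and 49.9, 46.2 and 20.3 for Plin2, Rara and Rxra in cKO. The planned search for the m6A motif in the peaks was not run, because sequence of the peaks was not used here. Depth is unknown, so a missing peak is no evidence of an unmethylated site.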
